A study of Homo sapiens with 6 samples.

Results

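The genes described here carry glucose through glycolysis and the pentose phosphate pathway, pass pyruvate to lactate or to mitochondria, or take part in the response to low oxygen. They were given as a list of 40 genes by pathway role. Exactly 36 of them were measured by a row with 1 gene symbol, out of 18404 genes measured in this way. PGAM1, a phosphoglycerate mutase, was measured only by rows shared with its near copy PGAM4 and is described apart. SLC16A1 and SLC16A3, both lactate transporters, and CA9, a carbonic anhydrase, were not analysed here.

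The cells were BE(2)-C, a human neuroblastoma cell line that carries extra copies of MYCN, grown in medium with 10% dialyzed serum. Treated cells had received 5 µM BIX01294 for 24 h, and the controls 0.05% DMSO for 24 h. BIX01294 blocks the histone methyltransferases encoded by EHMT2 and EHMT1, which act on lysine 9 of histone H3. The labels give no DMSO content for the BIX01294 samples. Total RNA of 3 samples per treatment was hybridised to 1 Affymetrix array each, 6 arrays in all, and the series describes the 3 samples as independent. All samples come from 1 cell line, so the spread between arrays is that between samples of this line. In bulk RNA, fewer cells of a type and less RNA per cell cannot be told apart.

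Median log2 values of the 6 arrays were 6.94 to 7.01. For the neuroblastoma label, 11 of 13 adrenergic marker genes were measured. With no detection call and with probes of different brightness, array levels do not test the label. Of these markers 2 rose and 4 fell, and the log2 of their summed level was 15.06 to 15.10 in BIX01294 and 15.11 to 15.15 in DMSO. Of 12 mesenchymal or stromal markers 2 rose and 3 fell, and the log2 of their summed level was 12.66 to 12.71 in BIX01294 and 12.58 to 12.66 in DMSO. This summed level hides opposite moves, from a log2 change of -1.50 for DCN to 0.82 for VIM. At the threshold given below, 54.5% of the adrenergic and 41.7% of the mesenchymal markers passed. The share was 23.6% of all genes and 37.3% of those at or above the median level. The part of either marker group in the changes below was not tested.

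In glycolysis, hexokinase traps glucose as a phosphate, phosphofructokinase commits it, and pyruvate kinase yields pyruvate. The pentose phosphate pathway branches off after the first phosphorylation and supplies NADPH and ribose. At the end of the route, lactate dehydrogenase turns pyruvate to lactate, while pyruvate dehydrogenase, held inactive by its kinases (PDKs), feeds it into mitochondrial oxidation. When oxygen is low, the HIF alpha subunits escape hydroxylation by EGLN enzymes, pair with ARNT and raise transcription of many glycolytic genes. Tumour cells often keep glycolysis running even with oxygen present.

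After BIX01294, 12 of the 36 measured genes passed an adjusted p of 0.05 in limma, a linear model moderated across all genes. Of these, 8 were higher (HK1, ENO2, PKM, PFKFB4, LDHA, SLC2A1, PGD and BNIP3) and 4 were lower (EPAS1, PDK2, PFKM and PDK1). The share of 33.3% compares with 23.6% of all genes. By direction, 22.2% of the 36 genes were higher and 11.1% lower, against 12.9% and 10.7% of all genes. The rows of 31 of the 36 genes lay at or above the median signal of all genes, and among these 11 passed, or 35.5%, against 37.3% of all genes at or above the median level. Among these 31 genes 22.6% were higher and 12.9% lower, against 22.5% and 14.8% of all genes at or above the median level. The share of calls was thus near that of other genes with bright rows, in both directions. The changes were small. Their median was 0.10 on the log2 scale, against -0.01 over all genes, with extremes of -0.81 and 0.32, and only EPAS1 and PDK2 changed by at least 1.5-fold. At or above the median level the median change was 0.10 for the listed genes and 0.03 for all genes. The groups of 3 arrays did not overlap in 23 of the 36 genes, where 40.1% of all genes did not overlap. At or above the median level it was 21 of 31 genes, against 60.0% of all such genes.

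**Figure D1:**
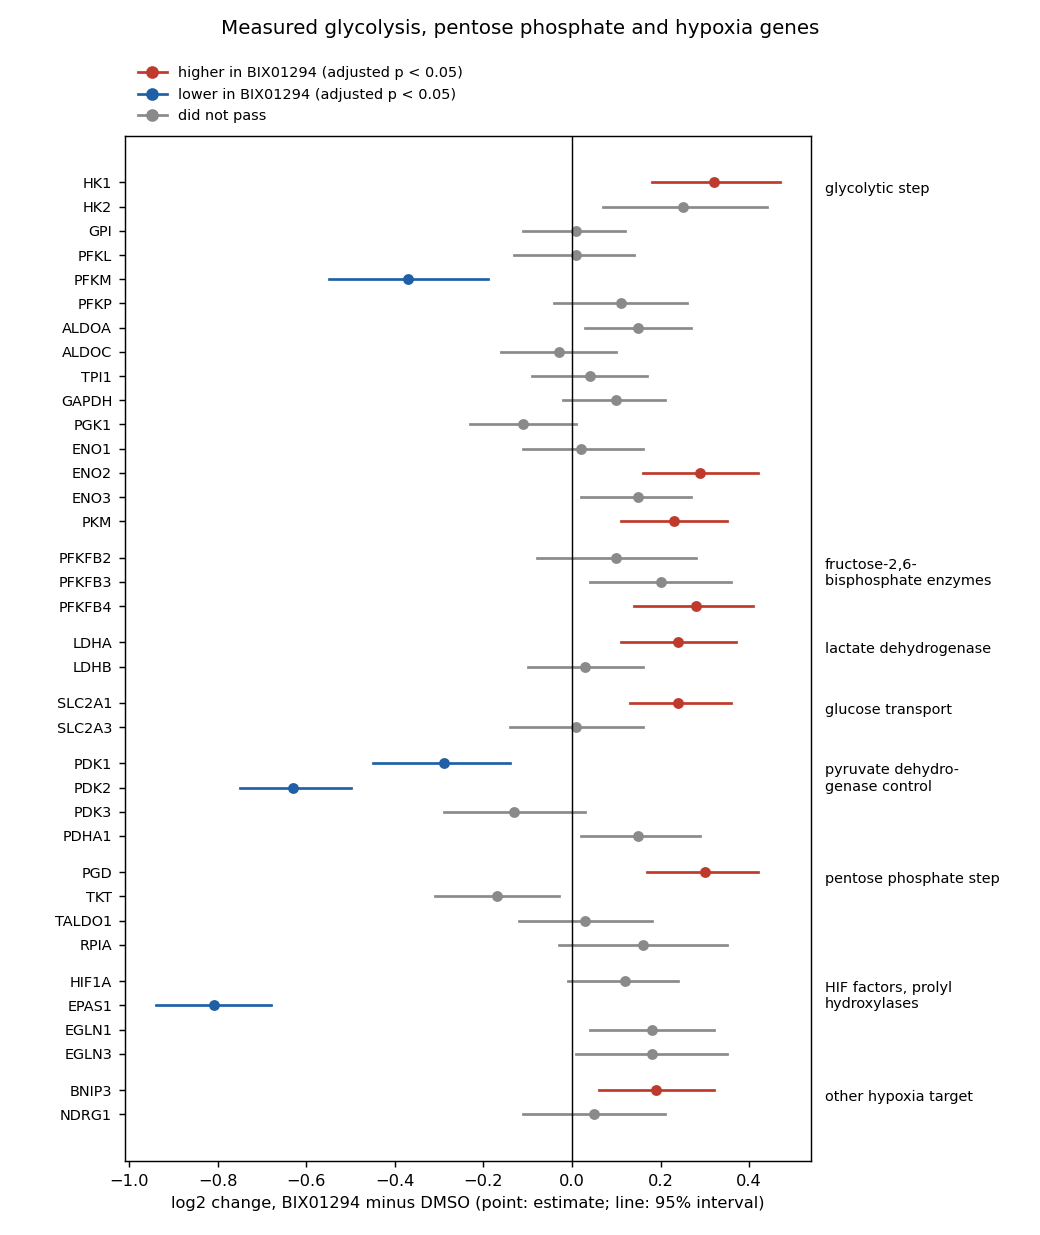
Log2 change, BIX01294 minus DMSO, of the 36 measured genes by role (x axis, log2 units; points, estimates; lines, 95% intervals of the limma fit; 3 arrays per group). The 8 red genes rose by 0.19 to 0.32, and the 4 blue genes lie between -0.81 and -0.29, with EPAS1 and PDK2 farthest from 0.

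EPAS1, which encodes the HIF-2 alpha subunit, changed most. It read 8.91, 8.80 and 8.82 in the BIX01294 arrays, against 9.70, 9.63 and 9.63 in the DMSO arrays. Every BIX01294 value lay below every DMSO value, and the gap was many times the spread within either group. EPAS1 was 1.75-fold lower, a log2 change of -0.81 ± 0.057 (SE, n = 3 per group; adjusted p = 8.83e-05 in limma). In all 18404 genes it ranked at position 202 by size of change. HIF1A, the other HIF alpha subunit, averaged 12.70 ± 0.050 in BIX01294 and 12.58 ± 0.026 in DMSO (SD, n = 3 each). Its groups did not overlap, but the difference of 0.12 did not pass (adjusted p = 0.165 in limma), with a 95% interval of -0.01 to 0.24. The 2 subunits changed unequally. Within each array, HIF1A relative to EPAS1 was higher in BIX01294 by 0.93 ± 0.061 (SE; adjusted p = 6.23e-05 in limma). The prolyl hydroxylases EGLN1 and EGLN3, which mark HIF alpha subunits for destruction, both differed by 0.18, with adjusted p-values of 0.0624 and 0.124 in limma. Their difference from each other was 0.00, with a 95% interval of -0.22 to 0.22.

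The regions around start sites were searched for the letters of the HIF binding core, since the listed genes that passed moved in both directions. The core was taken as ACGTG or GCGTG on either strand. Sequences came from RefSeq (GRCh38.p14) and run from 250 bases before to 50 after each listed start. In all, 36 of the 40 genes had 66 listed starts, up to 7 per gene. This set is not that of the 36 measured genes. It holds PGAM1, SLC16A3 and CA9, which had no expression fit, and lacks PFKFB2, SLC2A3 and NDRG1. A core was present at 63.6% of these starts, against 48.4% of 35116 starts of all genes. It was at 66.7% of the starts of genes that rose, 38.5% of those of genes that fell and 74.2% of those of genes that did not pass. HK1 gave 7 of the 15 starts of genes that rose, and PFKM 7 of the 13 of genes that fell. Some of these stretches overlap, so both shares lean on 1 gene and do not compare the directions. By gene, it was present at 1 or more starts of all 8 genes that rose, all 4 that fell, and 18 of 21 that did not pass and had a listed start, against 52.4% of all genes. Genes with more listed starts have more chances to hold it. The E-box CACGTG, which contains ACGTG, was at 12.1% of these starts and at 7.3% of all starts. The ATF4 composite element, TGATG followed by any base and AA, was at 3.0% and 3.6%. The 6 promoters below, 3 of genes that fell and 3 of genes that rose, were chosen because they hold the core, to show where it lies. Capitals mark the core on either strand. A match is a string of letters and says nothing of binding.
EPAS1, chr2:46297157-46297456, plus strand: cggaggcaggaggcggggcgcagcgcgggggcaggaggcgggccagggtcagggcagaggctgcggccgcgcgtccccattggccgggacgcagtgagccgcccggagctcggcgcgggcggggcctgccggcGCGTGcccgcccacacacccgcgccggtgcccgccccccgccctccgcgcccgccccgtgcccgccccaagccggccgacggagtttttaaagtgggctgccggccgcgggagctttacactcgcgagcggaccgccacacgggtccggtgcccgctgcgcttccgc
PDK1, chr2:172555840-172556139, plus strand: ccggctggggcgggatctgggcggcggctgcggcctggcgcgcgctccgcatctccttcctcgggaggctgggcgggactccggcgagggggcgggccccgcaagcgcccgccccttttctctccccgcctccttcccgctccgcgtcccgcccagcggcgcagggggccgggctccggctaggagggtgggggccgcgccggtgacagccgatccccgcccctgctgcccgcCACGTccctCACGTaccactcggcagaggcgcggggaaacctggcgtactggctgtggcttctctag
PDK2, chr17:50095101-50095400, plus strand: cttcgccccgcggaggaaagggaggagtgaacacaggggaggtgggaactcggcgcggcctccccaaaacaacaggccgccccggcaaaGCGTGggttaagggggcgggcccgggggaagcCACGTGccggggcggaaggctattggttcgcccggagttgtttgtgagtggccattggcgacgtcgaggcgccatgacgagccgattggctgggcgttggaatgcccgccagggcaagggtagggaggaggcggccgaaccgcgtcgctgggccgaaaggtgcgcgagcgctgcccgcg
LDHA, chr11:18394313-18394612, plus strand: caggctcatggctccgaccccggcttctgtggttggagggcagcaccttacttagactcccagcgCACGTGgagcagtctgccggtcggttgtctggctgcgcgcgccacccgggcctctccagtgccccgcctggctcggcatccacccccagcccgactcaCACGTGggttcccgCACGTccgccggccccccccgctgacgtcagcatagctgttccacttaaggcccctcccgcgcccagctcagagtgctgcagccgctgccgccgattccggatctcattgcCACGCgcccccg
PGD, chr1:10398814-10399113, plus strand: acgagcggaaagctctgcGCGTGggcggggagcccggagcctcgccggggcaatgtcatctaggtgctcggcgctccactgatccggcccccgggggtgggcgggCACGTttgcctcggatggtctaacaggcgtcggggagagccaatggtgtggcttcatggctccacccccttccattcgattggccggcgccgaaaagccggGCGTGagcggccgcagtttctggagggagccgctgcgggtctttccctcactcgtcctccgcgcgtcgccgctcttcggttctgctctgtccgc
BNIP3, chr10:131981874-131982173, minus strand: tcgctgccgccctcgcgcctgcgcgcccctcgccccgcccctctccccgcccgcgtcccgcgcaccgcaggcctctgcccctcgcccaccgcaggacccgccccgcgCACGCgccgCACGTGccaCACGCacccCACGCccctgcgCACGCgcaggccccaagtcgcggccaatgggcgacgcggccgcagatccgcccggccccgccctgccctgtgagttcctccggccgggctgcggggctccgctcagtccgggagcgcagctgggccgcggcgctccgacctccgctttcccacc

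EPAS1 held 1 match. The PDK1 promoter shown, 1 of 2 listed, held 2 matches close to the start, and the PDK2 promoter shown, 1 of 3 listed, held 3. LDHA held 6 in the first of its 2 listed promoters, BNIP3 held 6 and PGD 3. An E-box is read in both directions and gives 2 of these matches.

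SLC2A1 and HK1 rose, while the carrier SLC2A3 and the hexokinase HK2 did not pass. SLC2A1, the widespread glucose carrier GLUT1, read 10.85, 10.89 and 10.82 in BIX01294, against 10.62, 10.61 and 10.60 in DMSO. The groups were separate and both tight, and SLC2A1 rose 1.18-fold (log2 change 0.24 ± 0.051 SE; adjusted p = 0.0103 in limma). SLC2A3, the carrier GLUT3 of neurons, averaged 8.10 ± 0.082 in BIX01294 and 8.09 ± 0.065 in DMSO (SD, n = 3 each; adjusted p = 0.945 in limma). SLC2A1 rose relative to SLC2A3 by 0.23 ± 0.067 (SE; adjusted p = 0.036 in limma), a call that was lost under 7 of 14 alternatives. HK1, the constitutive hexokinase, read 9.65, 9.68 and 9.71 in BIX01294, against 9.40, 9.42 and 9.25 in DMSO. DMSO replicate 3 was the lowest, and HK1 rose 1.25-fold (0.32 ± 0.062 SE; adjusted p = 0.00715 in limma). HK2, the inducible hexokinase of many tumours, read 9.12, 9.18 and 9.20 in BIX01294, against 9.03, 8.96 and 8.74 in DMSO. Its groups did not overlap either, but its change of 0.25 ± 0.081 (SE) just missed (adjusted p = 0.0547 in limma), with DMSO replicate 3 again lowest. HK1 and HK2 were not shown to differ in their change (0.07, 95% interval -0.06 to 0.20), so the data do not separate them.

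Of the phosphofructokinase subunits, PFKM fell and the other two did not pass. PFKM, the muscle-type subunit, read 10.56, 10.57 and 10.47 in BIX01294, against 11.06, 10.86 and 10.79 in DMSO. The lowest DMSO array stood above the highest BIX01294 array, and DMSO replicate 1 stood above the other two. PFKM was 1.29-fold lower (-0.37 ± 0.078 SE; adjusted p = 0.0106 in limma). The liver-type PFKL averaged 8.60 in both groups (SD 0.065 in BIX01294 and 0.042 in DMSO, n = 3 each), and the platelet-type PFKP averaged 9.91 ± 0.057 in BIX01294 and 9.80 ± 0.090 in DMSO (SD, n = 3 each). Neither passed (adjusted p = 0.965 and 0.284 in limma). PFKM fell relative to PFKL by 0.38 (± 0.065 SE; adjusted p = 0.0046 in limma) and relative to PFKP by 0.48 (± 0.060 SE; adjusted p = 0.00109 in limma). Both of these held under all 14 alternatives tried. PFKP and PFKL were not shown to differ from each other (0.10, 95% interval -0.03 to 0.24).

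The PFKFB enzymes make and remove fructose-2,6-bisphosphate, the strongest activator of phosphofructokinase. PFKFB4 read 6.92, 7.08 and 6.98 in BIX01294, against 6.72, 6.71 and 6.73 in DMSO. The DMSO arrays were nearly equal and lay below all BIX01294 arrays, and PFKFB4 rose 1.21-fold (0.28 ± 0.059 SE; adjusted p = 0.0115 in limma). PFKFB3 averaged 7.93 ± 0.027 in BIX01294 and 7.73 ± 0.115 in DMSO (SD, n = 3 each; adjusted p = 0.0727 in limma). PFKFB2, whose row was under the lower quartile of signals, differed by 0.10 (adjusted p = 0.445 in limma). No pair among these PFKFB genes was shown to change unequally.

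In the middle of glycolysis GPI, the aldolases, TPI1, GAPDH and PGK1 did not pass. GPI, which isomerises glucose phosphate, differed by 0.01, the aldolases ALDOA and ALDOC by 0.15 and -0.03, TPI1, triose phosphate isomerase, by 0.04, GAPDH by 0.10 and PGK1, phosphoglycerate kinase, by -0.11, with adjusted p-values between 0.076 and 0.955 in limma. The 95% intervals of GPI, TPI1 and GAPDH lay within -0.11 to 0.21. PGK1 read 12.91, 12.87 and 12.96 in BIX01294, against 13.01, 13.04 and 13.01 in DMSO. GAPDH read 14.40, 14.37 and 14.41 in BIX01294, against 14.30, 14.27 and 14.32 in DMSO. In both genes the groups did not overlap, in opposite directions, although neither change passed. The groups of ALDOA did not overlap either, at 11.19, 11.24 and 11.19 in BIX01294, against 11.02, 11.07 and 11.08 in DMSO. At or above the median level 60.0% of all genes did not overlap. GAPDH, PGK1, TPI1, ENO1 and the lactate dehydrogenases have processed pseudogenes, and probes may share targets with these. A second row of TPI1 differed by 0.13 (adjusted p = 0.699 in limma over rows). Among the rows shared by PGAM1 and PGAM4, the brightest read 12.04, 12.06 and 12.06 in BIX01294, against 11.90, 11.91 and 11.92 in DMSO. That row's difference of 0.14 did not pass (adjusted p = 0.0729 in limma over 20546 rows), and the other 3 rows differed by between -0.12 and 0.14.

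The final steps to pyruvate and lactate included 3 rises. ENO2, the neuronal enolase, read 11.24, 11.27 and 11.17 in BIX01294, against 10.95, 10.97 and 10.90 in DMSO. All BIX01294 arrays lay well above all DMSO arrays, and ENO2 rose 1.22-fold (0.29 ± 0.055 SE; adjusted p = 0.00693 in limma). The ubiquitous ENO1 averaged 13.10 ± 0.059 in BIX01294 and 13.08 ± 0.057 in DMSO (SD, n = 3 each; adjusted p = 0.825 in limma). ENO1 fell relative to ENO2 by 0.27 (± 0.050 SE, adjusted p = 0.0067 in limma), so ENO1 and ENO2 changed unequally. The muscle enolase ENO3 differed by 0.15 (adjusted p = 0.0894 in limma). Neither ENO1 nor ENO2 was shown to differ from ENO3 in its change (adjusted p = 0.176 and 0.113 in limma). PKM, pyruvate kinase of muscle and tumours, read 12.90, 12.92 and 12.87 in BIX01294, against 12.68, 12.69 and 12.63 in DMSO. It rose 1.17-fold (0.23 ± 0.052 SE; adjusted p = 0.0138 in limma) with no overlap, and its single row does not tell its splice forms apart. LDHA, the lactate-forming type of subunit, read 9.56, 9.53 and 9.60 in BIX01294, against 9.37, 9.35 and 9.25 in DMSO. It rose 1.18-fold (0.24 ± 0.057 SE; adjusted p = 0.0179 in limma), and without BIX01294 replicate 3 its adjusted p was 0.0681. LDHB, the heart type, averaged 13.62 ± 0.067 in BIX01294 and 13.59 ± 0.019 in DMSO (SD, n = 3 each; adjusted p = 0.798 in limma). LDHA rose relative to LDHB by 0.22 ± 0.056 (SE; adjusted p = 0.0251 in limma), and 7 of 14 alternatives lost this call.

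**Figure D2:**
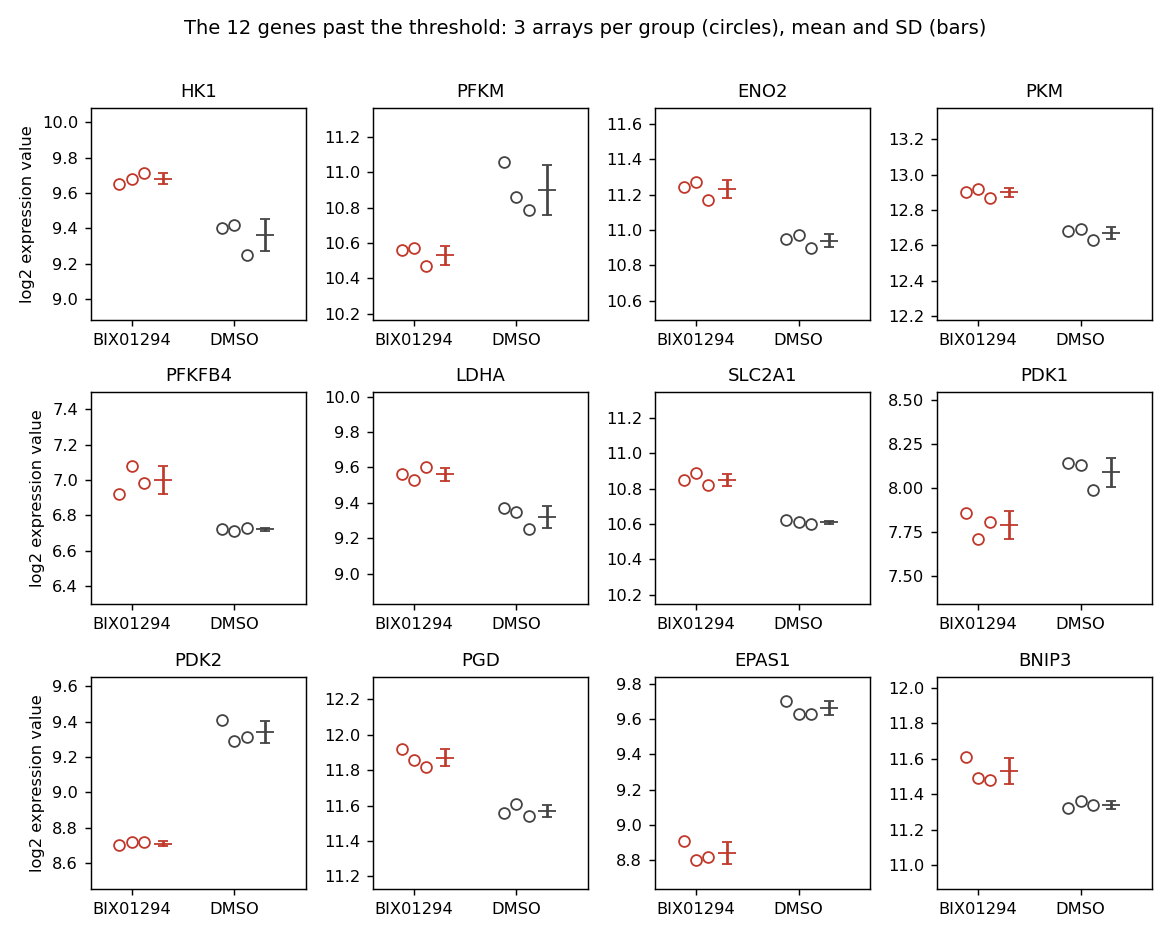
Log2 expression values (y axis) of the 12 genes past the threshold in each array (circles, BIX01294 left of DMSO, 3 arrays each), with group mean and SD (bars). Every panel spans the same range of log2 units around its own level, and in all 12 the groups do not overlap.

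Of the kinases that switch off pyruvate dehydrogenase, PDK2 and PDK1 fell, and PDK3 and PDK4 did not pass. PDK2, the widely expressed kinase, read 8.70, 8.72 and 8.72 in BIX01294, against 9.41, 9.29 and 9.31 in DMSO. The BIX01294 arrays were almost equal and far below every DMSO array. PDK2 was 1.54-fold lower (-0.63 ± 0.055 SE; adjusted p = 0.000242 in limma). PDK1, a HIF1A target, read 7.86, 7.71 and 7.81 in BIX01294, against 8.14, 8.13 and 7.99 in DMSO. The groups were separate, and PDK1 was 1.23-fold lower (-0.29 ± 0.067 SE; adjusted p = 0.0151 in limma), a call lost without DMSO replicate 1 and without DMSO replicate 2 (highest adjusted p 0.0586). PDK3 averaged 8.18 ± 0.031 in BIX01294 and 8.31 ± 0.114 in DMSO (SD, n = 3 each; adjusted p = 0.217 in limma). PDK3 thus differed by -0.13, with no overlap between its groups. PDK1 and PDK3 were not shown to differ in their change (-0.16, adjusted p = 0.113 in limma), so the data do not separate them. PDK4, not one of the 40 genes and named after its values were seen, differed by -0.07 on the log2 scale (adjusted p = 0.437 in limma). PDK2 fell more than PDK1 (difference of changes 0.33 ± 0.068 SE, PDK1 minus PDK2; adjusted p = 0.00958 in limma) and more than PDK3 (-0.49 ± 0.057 SE; adjusted p = 0.000753 in limma). PDHA1, the catalytic subunit that the kinases act on, averaged 10.50 ± 0.022 in BIX01294 and 10.35 ± 0.077 in DMSO (SD, n = 3 each), with no overlap and an adjusted p of 0.105 in limma.

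In the pentose phosphate pathway 1 of 4 enzymes passed. PGD, the second NADPH-forming dehydrogenase of the oxidative branch, read 11.92, 11.86 and 11.82 in BIX01294, against 11.56, 11.61 and 11.54 in DMSO. The groups were far apart relative to their spread, and PGD rose 1.23-fold (0.30 ± 0.054 SE; adjusted p = 0.00573 in limma). The non-oxidative enzymes shuffle sugars back towards glycolysis. TKT, transketolase, read 10.76, 10.75 and 10.65 in BIX01294, against 10.97, 10.88 and 10.82 in DMSO, a difference of -0.17 ± 0.062 (SE) with no overlap that missed the threshold (adjusted p = 0.0871 in limma). TALDO1, transaldolase, differed by 0.03 and RPIA, ribose phosphate isomerase, by 0.16, with adjusted p-values of 0.775 and 0.211 in limma.

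Of the other hypoxia targets, BNIP3, a mitophagy receptor, read 11.61, 11.49 and 11.48 in BIX01294, against 11.32, 11.36 and 11.34 in DMSO. The groups did not overlap, and BNIP3 rose 1.14-fold (0.19 ± 0.058 SE; adjusted p = 0.0483 in limma). This was the weakest of the 12 calls and was lost under 9 of 15 alternatives, each array left out among them. NDRG1, a stress and hypoxia gene, averaged 7.33 ± 0.013 in BIX01294 and 7.28 ± 0.120 in DMSO (SD, n = 3 each; adjusted p = 0.677 in limma).

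Isozymes of 1 step, or related factors, were compared directly within each array, which cancels any shift common to an array. Of 18 such pairs, 8 changed unequally (44.4%; adjusted over genes and pairs together in limma). No share over pairs of other genes was computed, so this count is not set against a background. Of single genes at or above the median level 37.3% passed, which is not a share over pairs. These were the 2 PFKM pairs, ENO1 with ENO2, LDHA with LDHB, SLC2A1 with SLC2A3, 2 PDK2 pairs and HIF1A with EPAS1. The calls of LDHA with LDHB and of SLC2A1 with SLC2A3 were each lost under 7 of 14 alternatives. The gap was widest for HIF1A with EPAS1. Of the other 10 pairs, ALDOA with ALDOC came nearest (0.18 ± 0.061 SE; adjusted p = 0.0663 in limma). The pairs share genes and are not independent of each other.

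**Figure D3:**
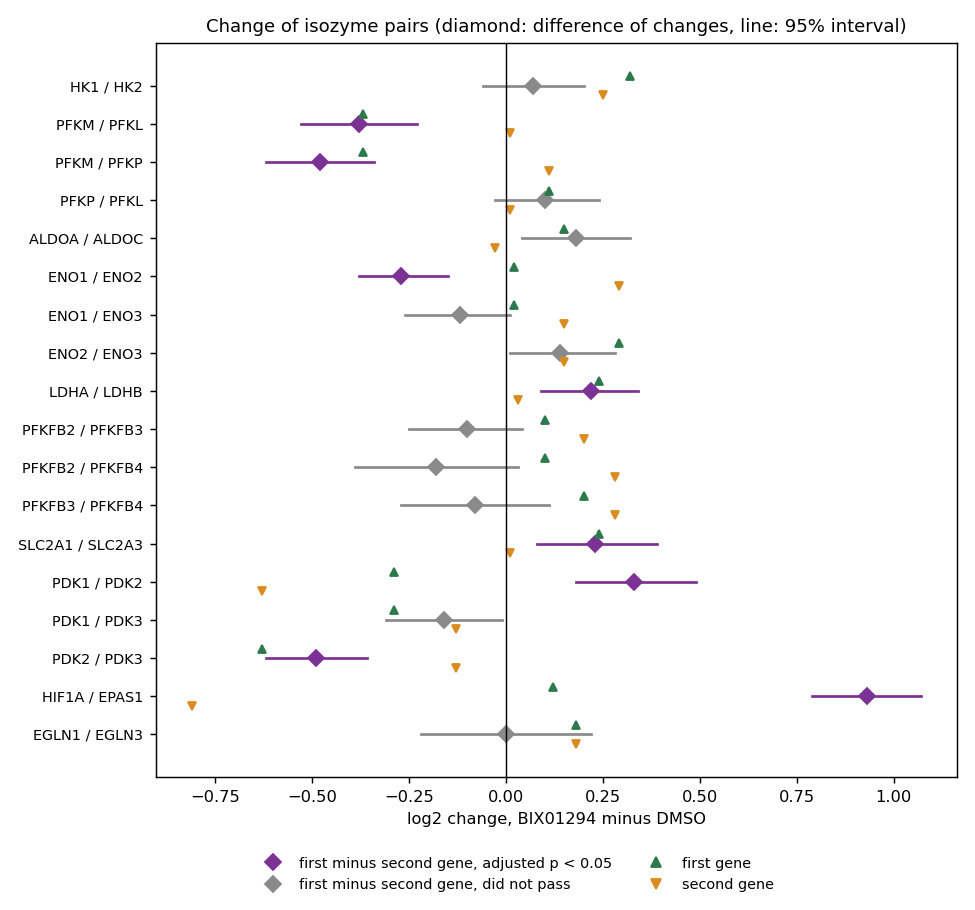
Log2 change, BIX01294 minus DMSO, of the first gene (up triangles), the second gene (down triangles) and their within-array difference (diamonds, lines 95% intervals) for 18 pairs. The 8 purple pairs passed, from -0.49 for PDK2 / PDK3 to 0.93 for HIF1A / EPAS1.

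Other genes of the same pathways, 97 measured of 104 listed, passed in 32 cases (33.0%), 15 higher and 17 lower. Without DMSO replicate 1, 20 passed. The share over all genes was 23.6%, with 12.9% higher and 10.7% lower, and 37.3% of genes at or above the median level passed. In pyruvate entry to mitochondria 4 of 10 rose and 1 fell (40.0% and 10.0%). PDP1, a phosphatase that reverses the action of the PDKs, read 9.47, 9.43 and 9.47 in BIX01294, against 9.15, 9.02 and 8.92 in DMSO, and rose 1.34-fold (adjusted p = 0.00315 in limma). PDPR, a subunit that restrains this phosphatase and has a near-identical pseudogene, fell 1.30-fold (adjusted p = 0.00409 in limma). MPC1, part of the mitochondrial pyruvate carrier, read 10.41, 10.26 and 10.31 in BIX01294, against 9.95, 9.95 and 9.86 in DMSO, and rose 1.33-fold (adjusted p = 0.00248 in limma). The PDK1 and PDK2 falls stood beside a PDP1 rise and a PDPR fall. PDK3 and PDK4 did not pass, and a joint effect on pyruvate dehydrogenase was not tested. PDHA2, a testis form under the lower quartile of levels, was called at 0.21 but lost that call under 6 of 13 alternatives.

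Among sugar and monocarboxylate transporters 3 of 15 rose and 1 fell (20.0% and 6.7%, against 12.9% and 10.7% of all genes). SLC16A7, the monocarboxylate carrier MCT2, read 9.96, 10.10 and 10.05 in BIX01294, against 9.37, 9.27 and 9.25 in DMSO. It rose 1.67-fold (0.74 ± 0.062 SE; adjusted p = 0.000198 in limma). The sugar carrier SLC2A6 rose 1.36-fold. The inositol carrier SLC2A13 rose 1.22-fold, a call lost without DMSO replicate 1 (adjusted p = 0.0523 in limma). SLC2A12 averaged 5.51 ± 0.211 in BIX01294 and 6.37 ± 0.038 in DMSO (SD, n = 3 each; adjusted p = 0.00076 in limma), and its BIX01294 level was under the lower quartile of all genes. In glycolysis and gluconeogenesis 4 of 27 rose and 4 fell (14.8% each). PCK2, the mitochondrial enzyme making phosphoenolpyruvate, read 9.53, 9.63 and 9.47 in BIX01294, against 10.62, 10.51 and 10.53 in DMSO. It fell 2.02-fold (-1.01 ± 0.064 SE; adjusted p = 5.2e-05 in limma), more than any of the 36 genes above. TIGAR, a fructose-2,6-bisphosphatase that slows glycolysis, rose 1.36-fold (adjusted p = 0.00259 in limma). GALM, which interconverts sugar anomers, fell 1.34-fold, and LDHAL6A fell by 0.34 on the log2 scale, a call lost under 6 of 14 alternatives. In the pentose phosphate and ribose list 1 of 10 rose and 1 fell (10.0% each). DERA, an aldolase of deoxyribose phosphate, rose 1.29-fold (adjusted p = 0.00326 in limma). H6PD, the dehydrogenase of the endoplasmic reticulum, fell 1.25-fold (adjusted p = 0.00502 in limma).

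Outside the list of 40, falls outnumbered rises among the hypoxia targets that were listed, while HIF regulators moved both ways. Of 12 regulators 2 rose and 2 fell (16.7% each, against 12.9% and 10.7% of all genes). ARNT, the partner of both HIF alpha subunits, read 9.52, 9.51 and 9.59 in BIX01294, against 9.85, 9.81 and 9.83 in DMSO, and fell 1.22-fold (adjusted p = 0.00581 in limma). Its paralog ARNT2 rose 1.18-fold (adjusted p = 0.00908 in limma). CITED2, which competes with HIF for a coactivator, fell 1.43-fold (adjusted p = 0.00084 in limma), and ELOC, elongin C, rose 1.17-fold, a call lost under 8 of 15 alternatives. Of 23 hypoxia targets 1 rose and 8 fell, 34.8% lower against 10.7% of all genes and 14.8% of those at or above the median level. These targets were listed with earlier results of these data known, so the share describes the list and tests nothing. Some of the targets that fell had rows under the lower quartile of levels, where no detection call separates them from background. BNIP3L, the closest relative of BNIP3, read 10.21, 10.19 and 10.16 in BIX01294, against 11.33, 11.25 and 11.31 in DMSO, and fell 2.16-fold (adjusted p = 1.64e-05 in limma). VEGFA, the angiogenic growth factor, fell 1.66-fold and DDIT4, an mTORC1 inhibitor also driven by ATF4, fell 8.08-fold. BHLHE40, a transcriptional repressor, rose 1.60-fold (adjusted p = 0.00314 in limma).

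**Figure D4:**
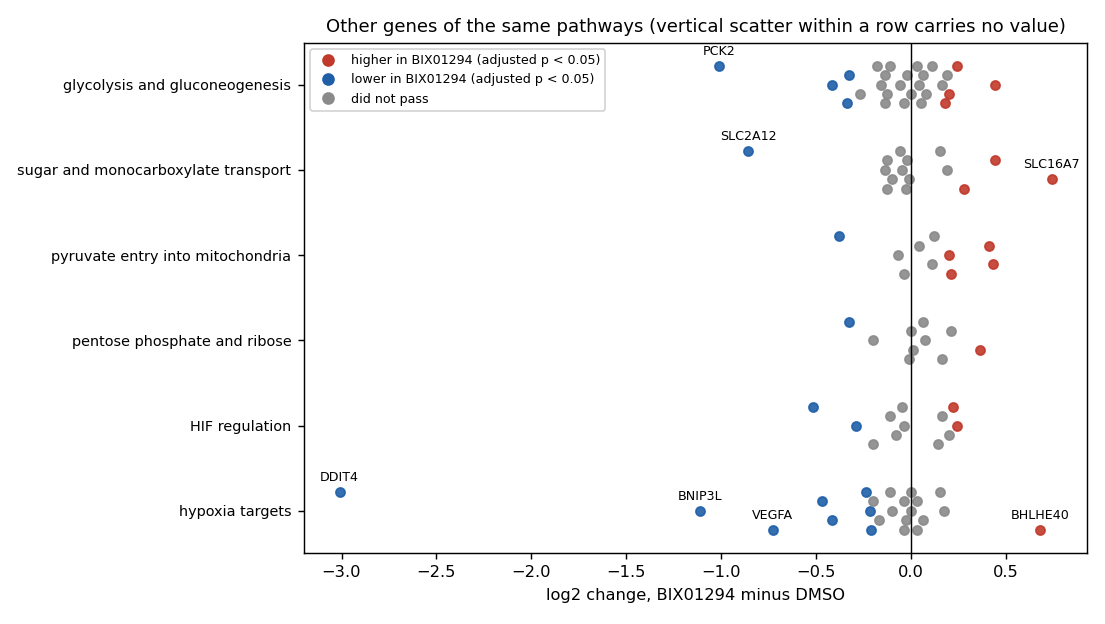
Log2 change, BIX01294 minus DMSO (x axis), of 97 other genes of the same pathways, 1 point per gene, in 6 lists; vertical scatter carries no value. Called genes with the largest changes are named, from DDIT4 at -3.01 to SLC16A7 at 0.74.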

How the data were processed

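Each deposited value is a log2 expression value per transcript cluster and array. The log2 scale was read from the values, which run from 1.93 to 14.93. Per the submitters' processing notes the tool was Partek. The sources used here do not give the background correction, the normalization between arrays or the summarization. The deposited table holds no detection call, so dim genes were not told apart from background, and the number of arrays limits precision. Where arrays are scaled to a common level, a change common to most transcripts is hidden.

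Of 32321 rows, 19158 had 1 gene symbol in the platform annotation, 1388 several and 11775 none. Symbols were updated by Entrez identifier to RefSeq (GRCh38.p14), matched for 19128 rows. The row with the highest mean was kept per gene, giving 18404 genes. Treatment was the only term in limma 3.58.1 (R 4.3.3), two-sided, with Benjamini-Hochberg adjustment over all genes and a threshold of 0.05. For isozyme pairs the within-array differences were added as rows to the same table. The code was tested on simulated data. Probes differ in brightness, so the level of a row was used only to place it in the distribution of all rows, and not to say that 1 gene is expressed more than another.

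The genes, lists and pairs were chosen with earlier results of these data known, so counts over them are descriptions. Every gene that passed is named with its array values. Of the wider lists, up to 4 genes past the threshold with the largest changes are named. Protein identity between isozymes was not computed.

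Within groups, arrays differed by a median of 0.0832 to 0.116 and shared 23 to 40 identical values of 32321. Alternatives were quantile normalization, centring, 2 filters on dim genes, averaged rows, all rows with a symbol, array weights, a robust fit with an intensity trend, a replicate block, and leaving out each array.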

Additional observations from a re-analysis of the deposited data

How the results depend on the processing

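All 12 genes, the 22 other pathway genes named and the 8 isozyme pairs kept their direction under each of up to 15 alternatives that tested them. HK1, PFKM, ENO2, PKM, PFKFB4, SLC2A1, PDK2, PGD and EPAS1 also kept their call in all of them, with log2 changes of -0.85 to -0.78 for EPAS1 and -0.66 to -0.59 for PDK2. With an intensity trend and robust estimation 21 of the 36 genes passed, against 12, and 15 of these were higher, against 8. With genes under the median level left out, 13 were higher. Of the genes that had missed, HK2 passed under 5 alternatives and EGLN1 under 6. ALDOA and TKT each passed under 4, and PFKFB3 under 3. EGLN3 and PDHA1 each passed under 2, and GAPDH, PGK1 and HIF1A each under 1. Leaving out 1 array at a time gave 10 to 12 of the 36 genes, 6 to 8 of them higher and 3 or 4 lower, 20 to 31 other pathway genes, 6 to 8 pairs, and 3018 to 3663 genes in all. The lowest count of other pathway genes, 20, came without DMSO replicate 1. With the replicate number as a block, 11 of the 36 genes, 24 other pathway genes, 6 pairs and 3641 genes passed. Same-numbered arrays correlated in their deviations at 0.19, -0.18 and 0.05, so the numbers were not taken to pair the samples. Centring moved the share of higher calls over all genes to 64.3%, against 54.7% as deposited and 49.7% after quantile normalization.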
